A study of Homo sapiens with 39 samples.

Results

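HNF4A isoform 8 was compared with isoform 7 in HCT116 human colorectal cancer cells, using 6 of the 39 RNA-seq libraries of the series, 3 for each isoform. The libraries were chosen by their labels. Of the 45446 rows in each table, the 12 that hold the HNF4A isoforms themselves were set aside and 45434 were compared. Of these, 15002 averaged at least 1 TPM (abundance per transcript length, as a share of the library) over the 39 libraries and were tested. In the series, each of the HNF4A isoforms 1 to 12 is carried by 1 stable line and is set against the unmodified host line. Each line holds 1 copy of an isoform with GFP fused to its C-terminus, made with the Flp-In T-REx system, in which doxycycline switches on the inserted gene. All libraries used here came from cells given doxycycline at 2.5 µg/ml for 48 h in DMEM with 10% FBS, penicillin and streptomycin. The isoform 7 and isoform 8 lines had been kept in blasticidin S at 5 µg/ml and hygromycin B at 100 µg/ml, and the parental line in blasticidin S at 5 µg/ml and zeocin at 100 µg/ml; these selection antibiotics were withdrawn at induction. GFP alone was expressed in no group analysed here. Because each isoform is represented by 1 line, a difference between the lines and a difference between the isoforms cannot be told apart. The labels do not say that the 3 libraries of a line came from separate cultures, so p-values measure only the spread between libraries of a line. For the tests of single genes that spread was estimated over all 39 libraries of the series.

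HNF4A is a nuclear receptor that binds DNA as a dimer and drives genes of the liver, kidney, pancreas and gut epithelium. Its transcripts start at either of a pair of promoters, P1 and P2, which give the protein different N-termini, and in the colon both kinds are made. Isoforms 7 and 8 are P2 forms in the standard nomenclature, and isoform 8 differs from isoform 7 by a short insertion in the C-terminal F domain, the region after the ligand-binding domain that is known to modulate coregulator binding. The comparison asks which transcripts differ when the insertion is present.

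The insertion is shown with its flanks because it is the one designed difference between the constructs compared. In GENCODE release 29 it is 30 bases, or 10 codons, on chromosome 20 from 44428458 to 44428487 (GRCh38, plus strand), at the end of coding exon 9 of 10 in transcript HNF4A-202; transcript HNF4A-206, also a P2 form, uses an earlier splice donor and lacks it. In the lines below, lower case marks the 30 bases on either side, which both transcripts share, and capitals mark the extra bases. The sequence comes from the reference annotation; that of the constructs themselves was not used here.
HNF4A-206, without the insertion: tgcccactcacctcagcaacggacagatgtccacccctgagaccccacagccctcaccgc
HNF4A-202, with the insertion: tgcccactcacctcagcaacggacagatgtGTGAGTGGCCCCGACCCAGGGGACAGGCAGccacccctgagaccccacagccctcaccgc

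The level of HNF4A itself did not separate the lines. Summed over its isoform rows it stood at 691.6, 752.1 and 754.0 TPM in the isoform 7 libraries and at 737.4, 700.9 and 762.9 TPM in the isoform 8 libraries, against 31.47 TPM ± 0.589 (SD, n = 3) in the parental line. The ranges overlapped, and the means differed by 1.19 TPM (exact two-sided permutation test, p = 1.0, where 3 libraries against 3 cannot give less than 0.1). The row of its own isoform held 99.62% of the HNF4A signal in the isoform 7 line and 99.82% in the isoform 8 line, so the labels and the files match. Colon epithelial markers were present in both lines: 11 of 15 averaged at least 1 TPM, and their summed level was 5000 to 5170 TPM with isoform 7, 4530 to 4930 TPM with isoform 8 and 3430 to 3590 TPM in the parental line. CDH17 and CDX1 were at or near 0 in all 3 groups. Fibroblast markers summed to 24.5 to 28.3 TPM with isoform 7 and 26.1 to 27.5 TPM with isoform 8 (2 of 9 averaged at least 1 TPM; LUM was at 0 in both lines), leukocyte markers to 17.0 to 21 and 17.1 to 17.9 TPM (2 of 10; MS4A1 and CD3E at 0), and endothelial markers to 3.84 to 4.43 and 3.74 to 4.28 TPM (1 of 6; ERG at 0). In the parental line these 3 sums were 25.9 to 28.8, 5.63 to 6.89 and 2.63 to 3.2 TPM, so the leukocyte sum was higher in both isoform lines. Most of that sum came from 1 marker. In bulk RNA of this kind, fewer cells that express a gene and less RNA of it per cell cannot be told apart. Read depth per library is unknown, since TPM holds none.

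The isoform 8 line differed from the isoform 7 line by a large amount in few genes and by a small amount in many. A gene was called when its Benjamini-Hochberg adjusted p in limma was under 0.05 and the difference in mean log2(TPM + 1) was at least 1; it passed the test when only the first held. On that scale 26 genes were called higher with isoform 8, or 0.173% of those tested, and 8 were called lower, or 0.0533%. Protein-coding genes made up 21 of the higher calls and 2 of the lower calls, CDKN2B and FAM25A. By adjusted p alone 1670 genes (11.1%) were higher and 498 (3.32%) lower, and 14.0% of the tested genes both passed and had no overlap between the libraries of the lines. The median difference of all tested genes was 0.05. The share of passing genes that were higher was 77.0%, but 50.8% with median-of-ratios scaling (1115 higher and 1080 lower, median difference -0.003) and 54.9% when TPM was rescaled without the mitochondrial genome (1189 and 976). Small differences near the median therefore take their direction from the scaling, and the called genes are described first.

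The coding genes called higher with isoform 8 are ordered here by role, a grouping made after the calls were seen and not a test of any theme. Among growth factors and receptors, PDGFC, a ligand of platelet-derived growth factor receptors on chromosome 4, was at 2.65, 2.14 and 1.38 TPM with isoform 7 and at 15, 14.3 and 14.0 TPM with isoform 8, a difference of 2.36 ± 0.116 (SE, log2 scale; adjusted p = 2.12e-15). All isoform 8 libraries lay above all isoform 7 libraries. NRG1, a ligand of the ERBB receptors, was at 10.2, 10.3 and 8.06 TPM against 25.0, 21.3 and 23.1 TPM (difference 1.20 ± 0.115, adjusted p = 9.55e-09). These ranges too did not overlap. FGF19, an endocrine fibroblast growth factor of the gut, was at 3.37, 2.87 and 2.97 TPM against 7.70, 6.75 and 7.57 TPM (1.04 ± 0.101), and its difference fell just short of 1 under median-of-ratios scaling. SUCNR1, the receptor for succinate, was near 0 with isoform 7 (0.193, 0.292 and 0.160 TPM) and at 4.06, 3.12 and 4.20 TPM with isoform 8 (1.97 ± 0.15). FGF13, an intracellular relative of the fibroblast growth factors that binds sodium channels, showed the widest ratio of mean TPM of the coding genes called: 0.124, 0.0893 and 0.117 TPM against 7.99, 6.95 and 8.60 TPM, a difference of 2.99 ± 0.13 (adjusted p = 1.19e-16). For SUCNR1 and FGF13 the pseudocount of 1 makes the log2 difference smaller than the ratio of TPM.

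Other called genes encode proteins of the cytoskeleton, the membrane or the cell surface. VIM encodes vimentin, the intermediate filament of mesenchymal cells, and lies on chromosome 10 from 17228259 to 17237593. It was at 2.61, 2.66 and 2.71 TPM with isoform 7, 18.5, 18.3 and 18.7 TPM with isoform 8 and 13.8, 14.6 and 13.9 TPM in the parental line. The 2 lines differed by 2.42 ± 0.218 in VIM (adjusted p = 3.89e-09), and every isoform 8 library was also above the parental ones. MARCKS, a membrane-bound regulator of actin, was at 24.0, 22.5 and 19.7 TPM against 57.6, 54.3 and 60.6 TPM (1.35 ± 0.072, adjusted p = 1.87e-14). FAT1, a giant cadherin on chromosome 4, was at 24.3, 22.7 and 30.5 TPM against 55.5, 46.3 and 69.4 TPM (1.10 ± 0.175), and without the third isoform 8 library it fell just under the minimum of 1 (0.956, adjusted p = 0.00127). The caveola component CAVIN2 (difference 1.18), the tetraspanin TSPAN18 (1.07) and the neuronal surface protein LINGO1 (1.02) were also called, each with libraries that did not overlap. RPGRIP1 and CEP44 encode proteins of the cilium and the centrosome. RPGRIP1 was at 0.401, 0.579 and 0.358 TPM with isoform 7 and 10.1, 11.3 and 10.4 TPM with isoform 8, which at 3.01 ± 0.129 (adjusted p = 1.19e-16) was the largest difference of a coding gene called. CEP44 went from 2.02 to 5.27 TPM on average (1.06).

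PLIN2 gave the tightest contrast. It encodes perilipin 2, a coat protein of lipid droplets, and lies on chromosome 9 from 19108375 to 19149290. Its level was 10.5, 9.85 and 7.68 TPM with isoform 7, 32.3, 30.3 and 31.5 TPM with isoform 8 and 31.7, 33.1 and 30.7 TPM in the parental line. PLIN2 was thus 3.37 times as abundant with isoform 8 as with isoform 7 (difference 1.66 ± 0.065, adjusted p = 1.63e-17), and the isoform 8 range overlapped that of the parental line. In the authors' deposited table the log2 fold change of PLIN2 over parental was -1.58 for isoform 7 and 0.0124 for isoform 8.

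Transcription, RNA-binding and signalling genes completed the list. IGF2BP3, an oncofetal RNA-binding protein, was at 1.10, 1.15 and 1.14 TPM with isoform 7 and 6.48, 6.70 and 7.10 TPM with isoform 8 (1.87 ± 0.087, adjusted p = 6.29e-16). MKX, a homeobox factor of tendon, was at 1.75, 2.24 and 1.74 TPM against 9.66, 8.06 and 8.70 TPM (1.75 ± 0.139). The library ranges of both genes were far apart. RERG, a small GTPase, averaged 0.485 against 3.32 TPM (1.54), and JDP2, a bZIP repressor of AP-1, averaged 2.33 against 5.89 TPM (1.04); the JDP2 difference slipped just under 1 with median-of-ratios scaling (0.998) and without the first isoform 8 library (0.997), with adjusted p of 0.000216 and 0.00123. HSPA1B, the stress-inducible chaperone HSP70, was at 190, 295 and 311 TPM against 620, 583 and 594 TPM (1.20 ± 0.274, adjusted p = 0.00301), and was 0.979, just under the minimum, without the first isoform 7 library (adjusted p = 0.0373). Its near-identical copy HSPA1A shares reads with it, and the 2 rows summed to 192, 299 and 314 TPM against 627, 588 and 599 TPM. HBA1, an alpha-globin gene with the close copy HBA2, was called as a single row (1.03), while the sum of both copies differed by 0.87. The HBA1 and LINGO1 calls also fell just under 1 with median-of-ratios scaling.

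**Figure D1:**
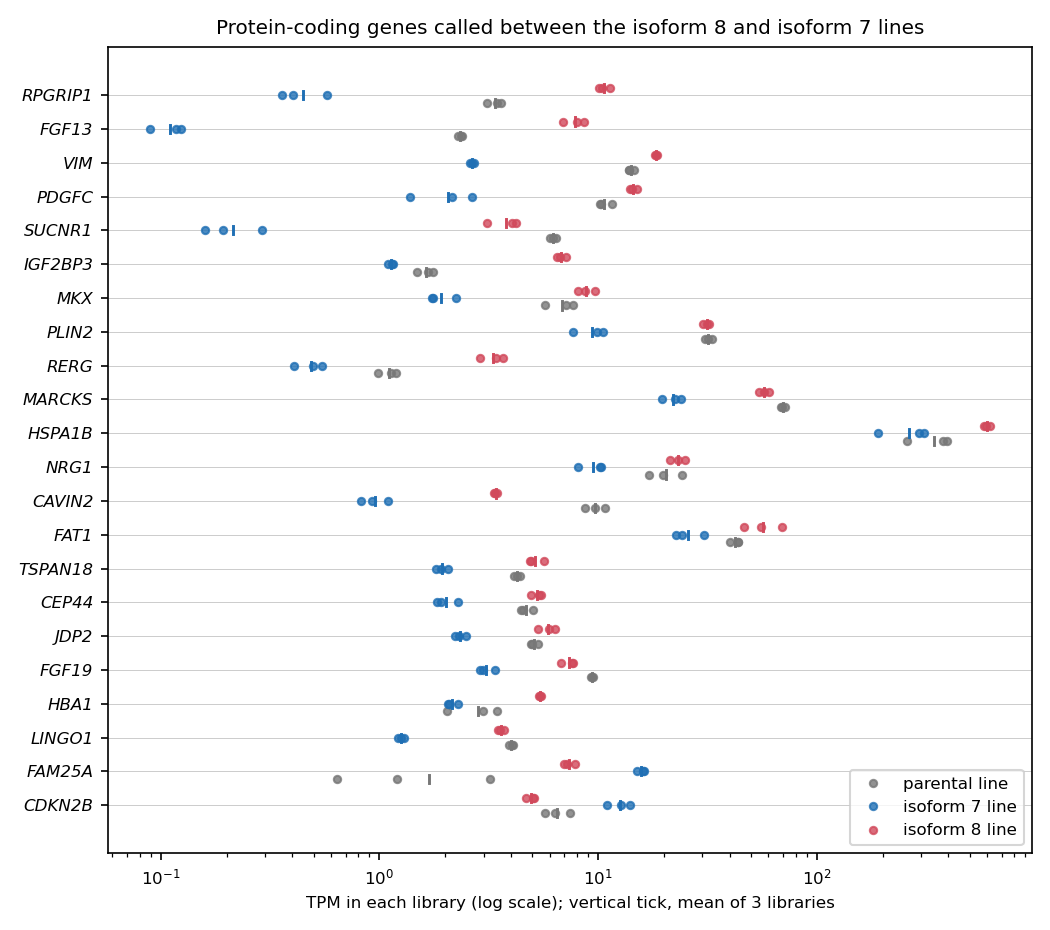
TPM on a log axis for 22 of the 23 protein-coding genes called between the isoform 8 and isoform 7 lines, with 1 point per library, a tick at the mean of 3 libraries, and the parental line in grey. In 20 genes every isoform 8 point lies to the right of every isoform 7 point; in FAM25A and CDKN2B the order is turned, and the PLIN2 points of isoform 8 (30.3 to 32.3 TPM) sit on those of the parental line.

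Set against the other 11 groups of the series, most of these genes were low with isoform 7 rather than high with isoform 8. Of the 21 coding genes called higher, the isoform 7 mean lay below all 11 other groups in 15, among them PLIN2, MARCKS, PDGFC, FGF13, SUCNR1 and FGF19. The isoform 8 mean lay above all 11 in 2, HSPA1B and HBA1, and in 5 genes both means lay within the range of the others. PLIN2 averaged between 29.9 and 37.5 TPM in the 11 other groups against 9.33 TPM with isoform 7. MARCKS averaged between 53.6 and 102 TPM in them against 22.1 TPM with isoform 7. In each of the 15 genes the lowest of the 11 other groups was the isoform 9 or the isoform 11 line. In several its mean was close to that of isoform 7. The isoform 9 mean was 2.41 against 2.06 TPM for PDGFC and 3.31 against 3.07 TPM for FGF19. The isoform 11 mean was 1.93 against 1.91 TPM for MKX. RPGRIP1 and FGF13 were different: only the isoform 6 line had a higher mean than isoform 8 (13.3 and 8.34 TPM), and the median of the 11 groups was 0.53 TPM for RPGRIP1 and 0.735 TPM for FGF13. These positions describe the means and carry no test. The genes were chosen for a higher level with isoform 8, so a low place of isoform 7 or a high place of isoform 8 was favoured. The share over all tested genes was not computed. PDGFC, FAT1 and CEP44, which are among the 15, lie on distal chromosome 4. Coding genes there were together also lower with isoform 7 than in any other group.

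Each line was also compared with the parental cells. These comparisons reuse the isoform 7 and isoform 8 libraries by which the genes were chosen. Low values with isoform 7 and high values with isoform 8 were thus favoured in advance. Both comparisons also use the same 3 parental libraries. Of the 21 coding genes called higher with isoform 8, 0 passed as higher and 19 as lower in the isoform 7 line relative to parental. In the isoform 8 line 7 passed as higher and 5 as lower. Of all 15002 tested genes, 2010 passed as higher and 3931 as lower with isoform 7 relative to parental, and 2528 and 2625 with isoform 8. MARCKS differed from parental by -1.62 with isoform 7 and by -0.28 with isoform 8. IGF2BP3 differed by -0.31 and by 1.56, RPGRIP1 by -1.60 and by 1.41, and FGF13 by -1.59 and by 1.4. These 3 genes thus lay on opposite sides of the parental level in the 2 lines. So did other called genes, such as PDGFC (-1.96 and 0.40) and FAT1 (-0.70 and 0.40).

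Among genes lower with isoform 8, CDKN2B differed the most of those that code for protein. It encodes the cell-cycle inhibitor p15 and lies on chromosome 9 from 22002903 to 22009363. CDKN2B was at 11.0, 12.8 and 14.0 TPM with isoform 7, 5.02, 5.12 and 4.67 TPM with isoform 8 and 5.75, 6.36 and 7.46 TPM in the parental line. The lines differed by -1.19 ± 0.116 in CDKN2B (adjusted p = 1.42e-08), and the isoform 7 mean of 12.6 TPM lay above all 11 other groups, of which the highest was the parental line at 6.52 TPM. FAM25A was at 16.3, 16.0 and 15 TPM against 7.87, 6.97 and 7.21 TPM (-1.01 ± 0.263); it has close copies, whose summed difference was -0.95, and in 4 of the 6 fits that left out a library the difference fell just under 1 in size (-0.976 to -0.998). The aquaporin pseudogene AQP7P3 was called lower (-1.07), and all rows of the AQP7 family summed to 24.0, 21.1 and 21.3 TPM against 10.9, 9.40 and 10.9 TPM.

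The 13 coding genes described next passed as lower without reaching a 1-unit difference, at -0.64 to -0.98. HPD, an enzyme of tyrosine breakdown, was at 25.8, 23.4 and 25.4 TPM with isoform 7 and 11.8, 11.9 and 12.7 TPM with isoform 8 (-0.98 ± 0.11, adjusted p = 2.27e-07), against 0.661 TPM in the parental line. CIDEC, a lipid droplet fusion protein, was at 23.0, 27.4 and 23.7 TPM against 14.1, 12.3 and 14.5 TPM (-0.81 ± 0.129), against 0.0745 TPM in the parental line. Both were thus raised over parental in both lines and less so with isoform 8. HEPH, the ferroxidase of the enterocyte (-0.87), the intestinal peptide receptor VIPR1 (-0.77) and the RNA-editing enzyme APOBEC1 (-0.65) had the same order of the 3 groups. KRT7, a simple-epithelial keratin, was at 10.9, 11.4 and 11.4 TPM against 6.13, 6.04 and 5.78 TPM (-0.81), with the parental line at 5.60 TPM. The hypoxia-regulated carbonic anhydrase CA9 (-0.80), the semaphorin receptor NRP1 (-0.79), SEMA7A (-0.71), the exchange factor NGEF (-0.74), the calcium-binding protein S100A1 (-0.78), the potassium channel KCNN4 (-0.66) and the transporter SLC49A3 (-0.64) passed as lower too, all without overlap of the libraries.

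To set these genes in a wider frame, genes were taken that differed by at least 1 log2 unit from parental in both P1 lines without and with the insertion, isoforms 1 and 2. None of these libraries is one of the 6 compared. Of the 317 genes higher in both P1 lines, 20 passed as higher and 66 as lower with isoform 8 relative to isoform 7, their median difference was -0.13 against 0.05 for all tested genes, and 217 lay below 0. Of the 146 genes lower in both P1 lines, 36 passed as higher and 3 as lower, with a median of 0.12. With median-of-ratios scaling the counts were 17 higher and 97 lower in the first set and 32 higher and 6 lower in the second. Leaving out 1 library at a time gave 45 to 60 lower in the first set and 26 to 35 higher in the second.

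The first set held ACSL5, a long-chain acyl-CoA synthetase of the enterocyte, at 65.2, 60.6 and 66.2 TPM with isoform 7 and 42.7, 44.9 and 47.2 TPM with isoform 8 (-0.50 ± 0.11, adjusted p = 0.00202). S100A14, a calcium-binding protein of epithelia, was at 298, 325 and 289 TPM against 206, 185 and 203 TPM (-0.61 ± 0.11), and the haem-degrading enzyme HMOX1 at 64.3, 60.5 and 55.3 TPM against 42.9, 40.8 and 42.3 TPM (-0.50). Libraries of the lines did not overlap in any of these 3 genes. All 3 thus stood nearer to the parental level with isoform 8. The median difference of the whole first set from parental was 0.85 with isoform 7 and 0.79 with isoform 8, values that share the parental libraries.

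**Figure D2:**
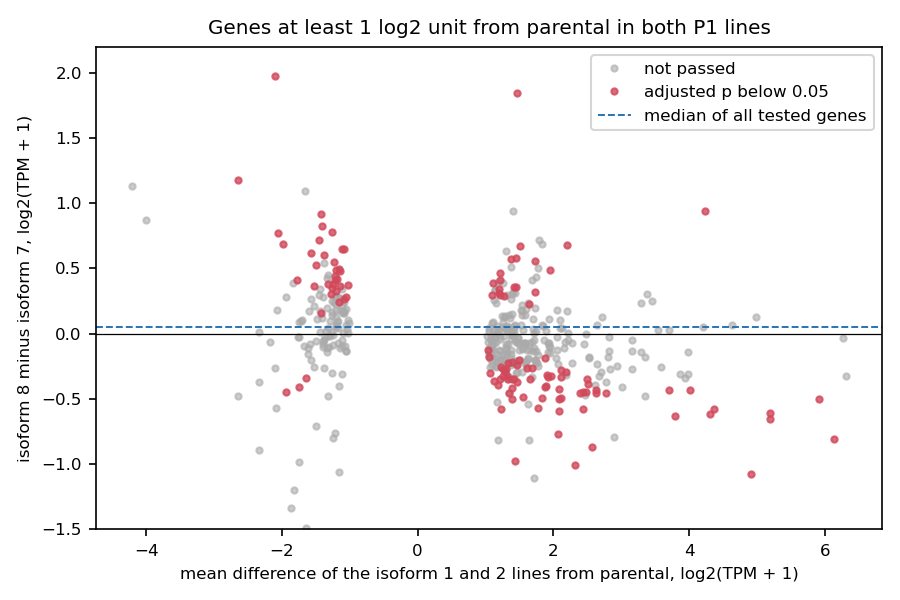
Each point is a gene that differed from parental by at least 1 log2 unit in both the isoform 1 and the isoform 2 line; the horizontal axis gives the mean of those 2 differences and the vertical axis the difference between isoform 8 and isoform 7, both on the log2(TPM + 1) scale. Red marks an adjusted p below 0.05 and the dashed line the median of all tested genes (0.05); 459 genes are drawn and 4 lie outside the vertical axis. On the right 66 red points lie below 0 and 20 above; on the left 33 lie above and 3 below. Of the 4 genes not drawn, TMEM132D-AS1, RPGRIP1 and VIM passed as higher and RPL21P16 did not pass.

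The insertion also separates isoforms 2 from 1, 5 from 4 and 11 from 10, so that the series repeats the contrast with other N-termini, each again as 1 line per isoform. Direction in the pair 5 and 4 rests on the labels: the isoform row with a mean of 852 TPM in the libraries labelled isoform 4 carries the name HNF4A4 in that table, but the other 11 tables give the name HNF4A5 to the row in that position, and the reverse holds for the libraries labelled isoform 5 (851 TPM). If the labels of these 2 lines were exchanged, the differences of this pair would change sign and the interactions with it would be sums in place of differences. Values with its sign turned are therefore given beside those that rest on it. By adjusted p alone, 10.5% of the tested genes were higher and 6.97% lower in isoform 2 than in isoform 1, 7.95% higher and 2.12% lower in isoform 5 than in isoform 4, and 4.52% higher and 8.90% lower in isoform 11 than in isoform 10. With median-of-ratios scaling the shares were 9.59% and 9.03%, 4.99% and 8.13%, and 8.19% and 7.55%, so which direction held more genes depended on the scaling in the last 2 pairs.

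The genes called between isoforms 8 and 7 did not move one way in the other pairs. Of the 21 coding genes called higher, 7 passed as higher and 5 as lower in isoform 2 against 1, 10 as higher and 1 as lower in isoform 5 against 4, and 0 as higher and 17 as lower in isoform 11 against 10. PLIN2, which differed by 1.66 here, differed by -0.04, 0.17 and -0.13 in those 3 pairs. VIM, at 2.42 here, differed by 0.58, 1.38 and -1.46. CDKN2B, at -1.19 here, differed by -1.11, 0.24 and 0.38.

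The difference between pairs was tested as an interaction, which gives a called gene at an adjusted p under 0.05 and a difference of differences of at least 1. It called 69 genes (0.460%) against the pair 2 and 1, 60 (0.400%) against the pair 5 and 4 and 231 (1.54%) against the pair 11 and 10; with the sign of the pair 5 and 4 turned, it called 184. Of the 21 coding genes called higher with isoform 8, the interaction called 12, all more positive here, against the first pair; 14 against the second, of which 12 were more positive here and 2, RERG and CAVIN2, less; and 20, all more positive here, against the third. With the sign of the second pair turned, it called 18, all more positive here, RERG (4.40) and CAVIN2 (3.70) among them. PLIN2 and RPGRIP1 were called in all 3 interactions, at 1.70, 1.49 and 1.78 and at 3.03, 3.20 and 3.15, and also with the sign of the pair 5 and 4 turned (1.83 and 2.81). CDKN2B was called against the pairs 5 and 4 (-1.43; -0.96 and not called with the sign turned) and 11 and 10 (-1.57).

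**Figure D3:**
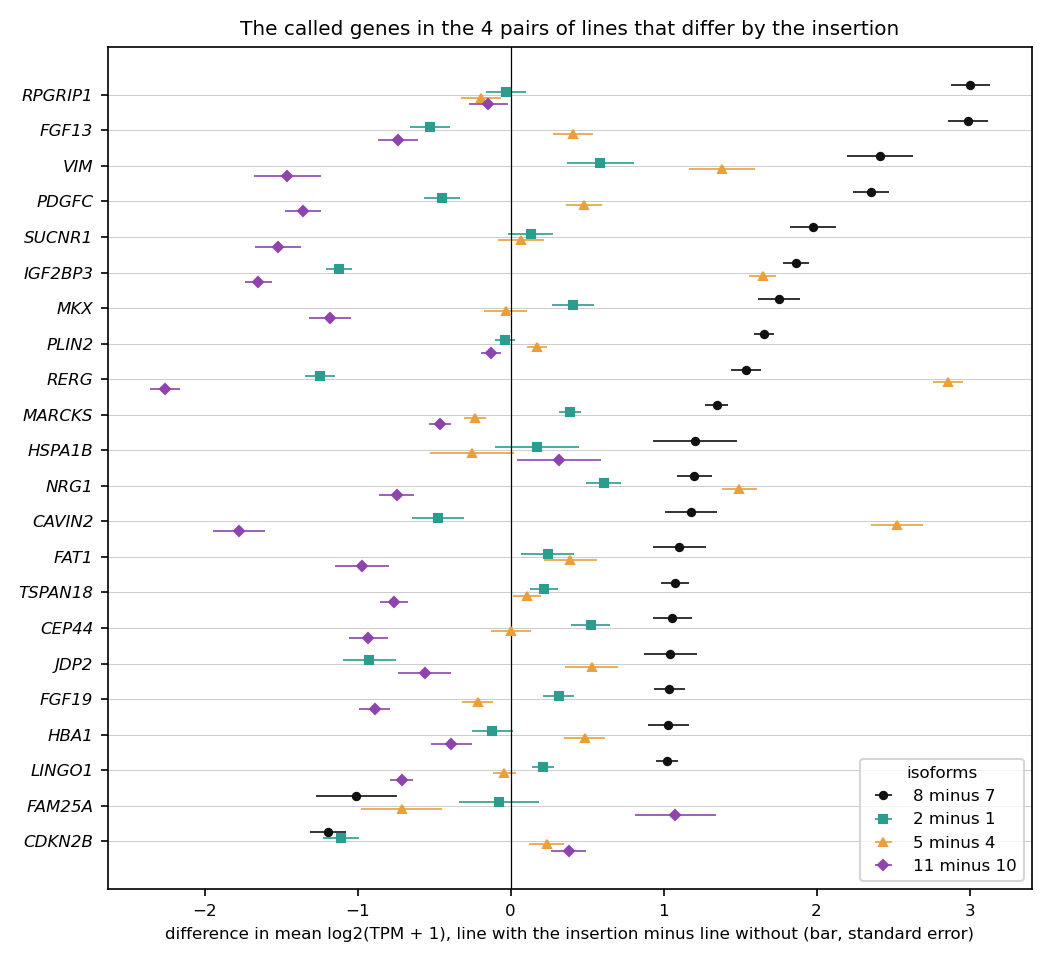
Difference in mean log2(TPM + 1) between the line with the insertion and the line without it for 22 of the 23 coding genes called between isoforms 8 and 7, in 4 pairs of lines, with bars of 1 standard error. Black points (8 minus 7) lie at or above 1 for 20 genes, while the purple points (11 minus 10) of 16 of these passed as lower; PLIN2 and RPGRIP1 lie near 0 in the other 3 pairs.

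Over all genes, the 1670 that were higher with isoform 8 than with isoform 7 included 498 that were higher in isoform 2 than in isoform 1, which is 29.8% of the first list and 31.5% of the second, beside the 10.5% of all tested genes. Another 78 (4.67%) passed in the opposite direction. With the pair 5 and 4 the lists shared 311 genes (18.6% and 26.1%), and 35 passed the opposite way. With the pair 11 and 10 they shared 15 genes (0.898% of the first list), while 591 (35.4% of the first list, 44.3% of the second) passed the opposite way. Of the 498 genes lower with isoform 8, 205 (41.2% and 19.6%) were lower in the pair 2 and 1, 61 (12.2% and 19.2%) in the pair 5 and 4 and 17 in the pair 11 and 10, where 154 (30.9%) were higher. With median-of-ratios scaling the shared higher genes were 346 of 1115 (pair 2 and 1), 189 (5 and 4) and 20 (11 and 10), and the shared lower genes 391 of 1080, 238 and 24; in the pair 11 and 10, 481 and 340 passed the opposite way. These pairs share no library. With the sign of the pair 5 and 4 turned, its shared and opposite genes change places.

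By limma's adjusted p, 0 genes passed in 1 direction in all 4 pairs; at an unadjusted p under 0.05 there were 10 higher and 7 lower, and with median-of-ratios scaling 1 passed as higher and 3 as lower. In the 3 pairs other than 11 and 10, 97 genes were higher and 38 lower (52 and 116 with median-of-ratios scaling; 10 and 12 if the sign of the pair 5 and 4 is turned). Ranked by the smallest of the 3 differences, the higher genes near the top included MSX2, a homeobox factor (0.72 in isoform 8 against 7, 0.81 in 2 against 1 and 0.86 in 5 against 4), NRG1 (1.20, 0.61 and 1.5) and IGF2, a fetal growth factor (0.92, 0.60 and 1.31). In isoform 11 against 10 each of these 3 was lower: -0.57 for MSX2, -0.74 for NRG1 and -0.72 for IGF2. The lower genes were led by CIDEC (-0.81, -0.57 and -1.51) and by SAT1, which acetylates polyamines (-0.57, -0.83 and -0.58), at 0.03 and 0.70 in isoform 11 against 10. If the sign of the pair 5 and 4 is turned, none of these 5 genes is in either list, and the higher list holds MARCKS (1.35, 0.39 and, as labelled, -0.23) and DKK1 (0.43, 0.39 and -0.25).

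Of the gene lists examined, that of ATF4 and the unfolded protein response held the most genes that passed in 1 direction. Both pathways answer stress in protein folding or amino acid supply, with chaperones of the endoplasmic reticulum and enzymes of amino acid synthesis among their targets. Of 34 members tested, 21 passed as higher with isoform 8 and 0 as lower, and the list median was 0.21. The chaperone HSPA5 (BiP) was at 357, 367 and 364 TPM with isoform 7 and 473, 454 and 477 TPM with isoform 8 (0.37 ± 0.049, adjusted p = 4.1e-06). MANF, a secreted endoplasmic reticulum protein, was at 170, 166 and 167 TPM against 226, 212 and 230 TPM (0.41 ± 0.042). Neither pair of ranges overlapped.

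HERPUD1, a part of the degradation machinery of the endoplasmic reticulum, led the list at 39.4, 44.1 and 42.2 TPM against 66.0, 59.5 and 64.6 TPM (0.59 ± 0.104), and PHGDH, which opens serine synthesis, was at 38.6, 39.5 and 36.7 TPM against 54.5, 52.0 and 55.1 TPM (0.48 ± 0.085). The folding enzymes PDIA4, HYOU1 and HSP90B1, the asparagine synthetase ASNS and the transcription factors DDIT3, CEBPB and XBP1 passed as higher as well, while ATF4 mRNA itself (0.01) did not pass. Relative to parental, MANF differed by -0.41 with isoform 7 and by -0.003 with isoform 8. With median-of-ratios scaling 13 members passed as higher, and leaving out 1 library at a time gave 14 to 20. The same list had 5 members higher and 15 lower in isoform 2 against 1, 2 and 0 in isoform 5 against 4 and 1 and 10 in isoform 11 against 10. By the adjusted p of the interaction alone, 21 members were more positive here than in the pair 2 and 1 (4.03% of all tested genes were). Against the pair 5 and 4 there were 9 (3.60%), or 13 members with its sign turned. Against the pair 11 and 10 there were 20 (16.8%), and 1 was less positive. The list was singled out by the same difference between isoforms 8 and 7 that each interaction contains, so positive values were favoured in advance. These counts carry no test of the list.

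**Figure D4:**
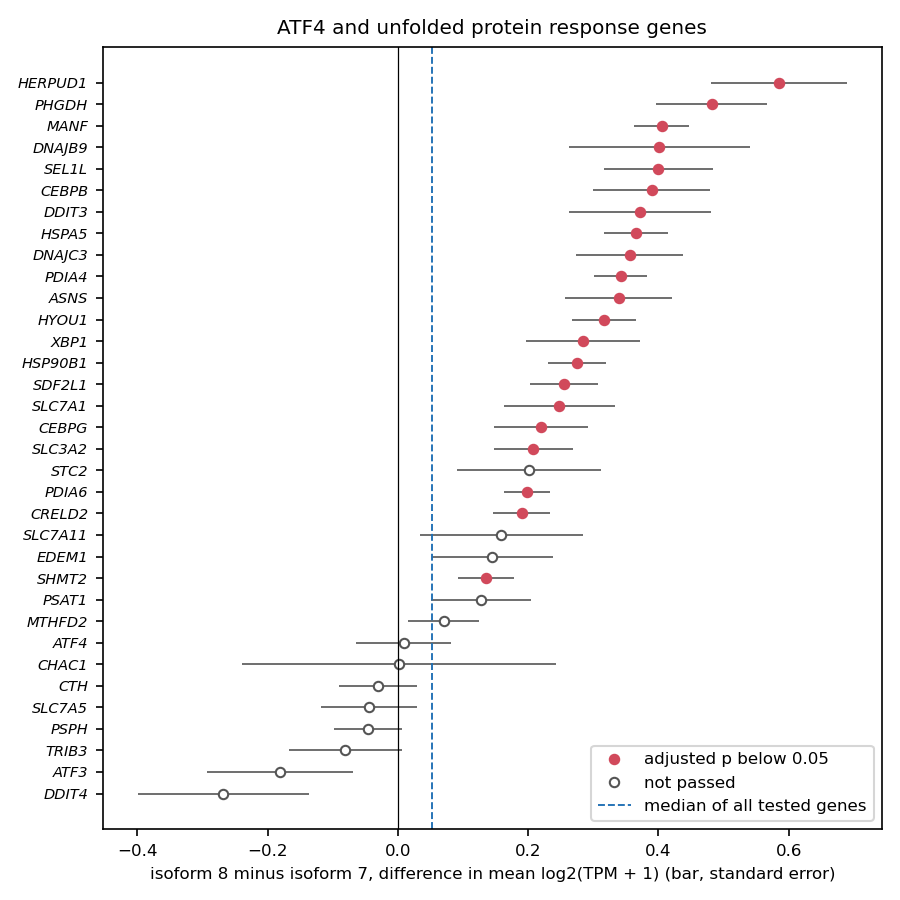
Difference between isoform 8 and isoform 7 in mean log2(TPM + 1), with bars of 1 standard error, for the 34 tested genes of the ATF4 and unfolded protein response list. Filled points mark the 21 genes with an adjusted p below 0.05, all to the right of the dashed median of all tested genes (0.05); HERPUD1 is highest at 0.59, and ATF4 is among the 13 open points.

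Targets of Wnt signalling, which keeps the intestinal crypt proliferating, passed as higher in 8 of 16 tested and as lower in 1. DKK1, a secreted Wnt inhibitor, was at 252, 255 and 234 TPM with isoform 7 and 346, 318 and 335 TPM with isoform 8 (0.43 ± 0.045, adjusted p = 5.33e-08). The feedback inhibitors NOTUM (0.49), AXIN2 (0.46) and NKD1 (0.38), the crypt receptors EPHB3 (0.50) and EPHB2 (0.27), SOX4 (0.41) and BMP4 (0.31) were the others, and CD44, a surface marker of crypt cells, was lower (-0.37). AXIN2, NKD1 and EPHB3 were under 2 TPM in every one of the 6 libraries. The list median was 0.24, and with median-of-ratios scaling the counts were also 8 and 1. In the other pairs the list had 6 higher and 1 lower (2 against 1), 6 and 2 (5 against 4) and 0 and 10 (11 against 10).

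Junction and keratin genes of epithelia had 0 members higher and 7 lower of 31 tested. At an unadjusted limma p under 0.05, 5 were higher and 11 lower. Claudins, which seal tight junctions, were among them: CLDN7 was at 211, 222 and 214 TPM against 184, 176 and 191 TPM (-0.23 ± 0.054), and CLDN4 (-0.22) and CLDN3 (-0.23) moved by a like amount, with EPCAM (-0.15), MARVELD3 (-0.24), KRT80 (-0.44) and KRT7 as the rest. The number lower was 13 with median-of-ratios scaling and 3 to 6 with 1 library left out. In the mesenchymal list 5 members passed as higher and 6 as lower of 21: VIM, LOXL2 (0.46) and FN1 (0.38) were higher, and CTGF (-0.55), PLAUR (-0.42), CAV2 (-0.36), CAV1 (-0.30) and SNAI1 (-0.23) lower, so that vimentin did not stand for its list.

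Among partners and coregulators of HNF4A, 8 of 26 were higher and 2 lower. NR2F1 (COUP-TF1), which competes for HNF4A sites, was at 8.25, 7.86 and 8.29 TPM against 13.7, 11.3 and 14.8 TPM (0.64 ± 0.137), while its relatives NR2F2 (-0.32) and NR2F6 (-0.23) were lower. The paralogue HNF4G, at 1.95, 2.52 and 2.49 TPM against 3.26, 3.91 and 4.06 TPM (0.51), and the gut lineage factors GATA6 (0.54) and FOXA1 (0.39) were higher. The 5 HNF4A targets of liver and gut that could be tested, of 21 listed, had 0 passing either way (limma; at an unadjusted p under 0.05, 0 were higher and 1 lower): LGALS4 was at 1.44 TPM ± 0.0609 against 1.90 TPM ± 0.0897 (SD, n = 3) and VIL1 at 3.81 TPM ± 0.475 against 4.03 TPM ± 0.147.

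In lipid handling, 2 of 28 genes passed as higher, PLIN2 and ACSL1 (0.29, on distal chromosome 4), and 3 as lower, CIDEC, ACSL5 and AGPAT2 (-0.19). Fatty acid oxidation and ketogenesis had 2 higher and 3 lower of 29, with BDH1 (0.34) higher and ACAD11 (-0.48) lower, and cholesterol synthesis had 0 higher and 2 lower of 24. Hypoxia and glycolysis genes split into 5 higher, led by the collagen-modifying P4HA2 (0.51), and 4 lower of 38, among them CA9 and LDHA (-0.27), which was at 1090, 1120 and 1050 TPM against 932, 848 and 924 TPM. Interferon-stimulated genes had 6 higher and 1 lower of 24, with OAS1 (0.41) and ISG15 (0.30) higher and IFI35 (-0.45) lower, and MHC class I presentation had 4 higher and 0 lower of 14: TAP1, TAP2, CALR and PDIA3. The last 2 are also chaperones of the endoplasmic reticulum. YAP and TEAD targets had 4 higher and 6 lower of 21, p53 targets 6 and 1 of 28, and EGF ligands and ERK output, a list that does not hold NRG1, 0 and 3 of 28 (TGFA, LIF and FOS).

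Replication genes of S phase had 5 higher and 0 lower of 39 and mitosis genes 1 and 0 of 37; in isoform 2 against 1 the S phase list had 34 higher. Cytosolic ribosomal proteins had 7 higher and 0 lower of 81. The other lists, namely NF-kB and chemokines, brush border, circadian clock, xenobiotic metabolism, nutrient carriers, metallothioneins, mucins and CEACAMs, and replication-dependent histones, had between 0 and 2 higher and between 0 and 3 lower. Beside the 11.1% higher and 3.32% lower of all tested genes, most of the higher counts in this paragraph are near or below the background. Lower counts were above it in several lists, such as 3 of 16 for NF-kB and chemokines and 2 of 19 for the circadian clock (2 higher in each). Among lists described before, 7 of 31 junction and keratin genes were lower (0 higher). So were 6 of 21 in the mesenchymal list (5 higher) and 6 of 21 YAP and TEAD targets (4 higher). None of these counts was tested.

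A shared shift by position was seen on the distal part of chromosome 4. From 150 Mb to the end, 73 coding genes were tested, 69 differences lay above 0, 55 genes passed as higher with isoform 8 and 0 as lower, and the median difference was 0.45 against 0.06 for all coding genes. Relative to parental the median of these genes was -0.44 with isoform 7 and 0.05 with isoform 8. For single libraries, the median of all tested coding genes in the library was subtracted from that of the segment. This gave -0.33, -0.38 and -0.39 with isoform 7 and 0.05, -0.02 and 0.08 with isoform 8, so the lines did not overlap. On that scale the means of other lines also departed from parental, from -0.19 (isoform 9) to 0.39 (isoform 5). The median difference of the same genes was 0.24 in isoform 2 against 1, 0.04 in 5 against 4 and -0.52 in 11 against 10. This shift of the segment enters the interaction values of PDGFC, FAT1 and CEP44.

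Well-known genes of the segment shared the shift. RPS3A, a ribosomal protein, was at 1730, 1740 and 1600 TPM against 2480, 2280 and 2400 TPM (0.50 ± 0.05), the chromatin protein HMGB2 averaged 253 against 365 TPM (0.53) and the deacetylase subunit SAP30 16.1 against 30 TPM (0.87). PDGFC, FAT1 and CEP44 lie in it too, and PDGFC at 2.36 exceeded the segment's median. Without the segment 23 genes were called higher and 8 lower. The start of chromosome 4, to 30 Mb, ran the other way, with 3 genes higher and 27 lower of 99 (median -0.11). On chromosome 14 between 60 and 100 Mb, 98 of 171 coding genes were higher and 2 lower, with a median of 0.23. JDP2 (1.04) lies in this stretch, and its 20 nearest tested coding genes had a median of 0.23.

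**Figure D5:**
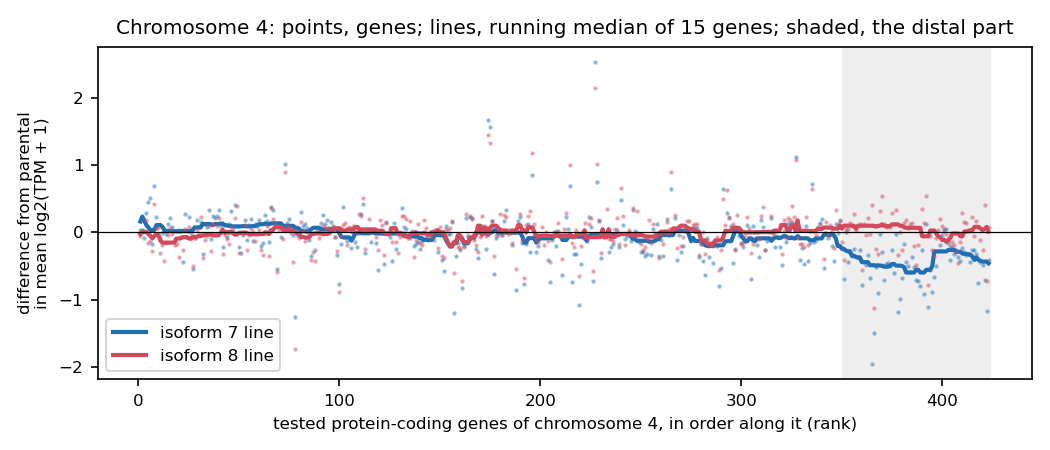
Difference from parental in mean log2(TPM + 1) for the tested coding genes of chromosome 4, in their order along it, in the isoform 7 line (blue) and the isoform 8 line (red); lines are running medians of 15 genes. In the shaded distal part the blue line runs below 0 (median -0.44) and the red line near 0 (0.05).

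The 13 coding genes of the mitochondrial genome were all lower on average with isoform 8, but none passed the test (limma, raw p between 0.0171 and 0.0469, adjusted p between 0.0868 and 0.166), and their median difference was -0.72. Their share of TPM was 8.97%, 6.38% and 9.77% with isoform 7 and 3.42%, 8.51% and 4.34% with isoform 8, so the second isoform 8 library fell within the isoform 7 range. Since TPM sums to a fixed total, this share enters every other value, which the rescaling without the mitochondrial genome, given above, takes out.

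Calls in non-coding rows are uncertain. TMEM132D-AS1, an antisense RNA, was at 0.561, 0.753 and 0.213 TPM with isoform 7 and 16.9, 12.6 and 17.6 TPM with isoform 8 (3.47 ± 0.323, adjusted p = 7.27e-09), without overlap. Short RNAs such as SNORD34, at 13.3, 10.2 and 17.6 TPM against 8.17, 3.27 and 0 TPM, and RNU6-589P, at 16.8, 8.78 and 14.9 TPM against 0, 7.60 and 0 TPM, varied widely between libraries of 1 line and are poorly captured by poly(A) selection. RPL21P16, a pseudogene of the ribosomal protein RPL21, differed by -4.74 but did not pass (adjusted p = 0.0932). It was at 1730, 1630 and 1320 TPM against 1530, 121 and 0.0483 TPM, while RPL21 and its pseudogenes together summed to 2910, 2900 and 2760 TPM against 3160, 2940 and 3080 TPM. The family's sum thus lay within 2760 and 3160 TPM in all 6 libraries, while this row alone spanned the range from near 0.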

How the data were processed

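Per the labels' protocols, poly(A) RNA was sequenced after a library preparation that keeps strand. The submitters' processing notes name Trimmomatic 0.36, FastQC 0.11.5, kallisto 0.44.0, DESeq2 1.22.2 and the build GRCh38.p12, without giving their roles. The authors deposited 1 table per group with TPM per library (each column summed to between 999972.6 and 999987.7), and the isoform tables also hold their own comparison with parental. Per the file headers, that comparison gives a mean of normalised counts (signal), a log2 fold change, its standard error and p-values; it entered no fit. The authors' mean normalised counts, which the files give only as a signal per gene, summed to 51503638 in the isoform 7 table and 51615640 in the isoform 8 table; depth per library is unknown, and no counting interval was computed.

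Differences in log2(TPM + 1) were fitted here to the deposited TPM with limma 3.58.1 in R 4.3.3, over all 39 libraries in 13 groups (26 residual degrees of freedom, mean-variance trend). Rows with a mean of at least 1 TPM were tested and p-values were adjusted over all 15002 (Benjamini-Hochberg). This scale understates differences of low genes. The script was tested on simulated data. Positions come from GENCODE release 29; 41238 rows matched by name. Named genes are HNF4A, up to 15 coding genes in each direction called or passing without overlap, members of gene lists, and called genes of the interactions; others (MSX2, IGF2, SAT1, S100A14, HMOX1, the chromosome 4 and RPL21 genes) were named after their values were seen. The comparison, the gene lists and the P1 sets were chosen with earlier results of these data known. Alternatives were scaling, pseudocount, filter, samples in the fit, a replicate block and each library left out. A list of mitochondrial genes matched no row by name, so those genes were taken by chromosome. Of the genes counted, 1 called coding gene and 1 marker gene are not reported here.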

Additional observations from a re-analysis of the deposited data

Results flagged for a closer look

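Each result here is a coding gene called between isoforms 8 and 7 whose difference was itself different in another pair of lines with and without the insertion, by the limma interaction test (adjusted p under 0.05 and at least 1 log2 unit). Values are the difference between isoforms 8 and 7 minus the difference in the other pair, on the log2(TPM + 1) scale. The genes were chosen by the first of these differences, so values with its sign were favoured in advance.

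Against the pair 2 and 1, ligands and receptors gave 3.52 for FGF13, 2.81 for PDGFC and 1.84 for SUCNR1. Structural and lipid genes gave 3.03 for RPGRIP1, 1.83 for VIM, 1.70 for PLIN2 and 1.65 for CAVIN2. Regulators gave 2.99 for IGF2BP3, 2.79 for RERG, 1.97 for JDP2 and 1.35 for MKX, and HBA1 gave 1.15.

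Against the pair 5 and 4, whose direction rests on the labels, values were positive in 12 genes and negative in 3. Ligands and receptors gave 2.58 for FGF13, 1.91 for SUCNR1, 1.88 for PDGFC and 1.25 for FGF19. Structural, chaperone and lipid genes gave 3.20 for RPGRIP1, 1.58 for MARCKS, 1.49 for PLIN2, 1.45 for HSPA1B, 1.06 for LINGO1, 1.05 for CEP44 and 1.03 for VIM, and the regulator MKX gave 1.78. The negative values were -1.43 for CDKN2B, -1.35 for CAVIN2 and -1.32 for RERG. For the last 2 the pair 5 and 4 differed by more, with the same sign. With the sign of that pair turned their values were 3.70 and 4.40. FGF19 (0.82), HSPA1B (0.95), LINGO1 (0.98) and CDKN2B (-0.96) were then not called, while the other genes of this paragraph were.

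Against the pair 11 and 10, ligands and receptors gave 3.72 for FGF13, 3.71 for PDGFC, 3.49 for SUCNR1, 1.95 for NRG1 and 1.92 for FGF19. Structural and lipid genes gave 3.87 for VIM, 3.15 for RPGRIP1, 2.96 for CAVIN2, 2.07 for FAT1, 1.99 for CEP44, 1.84 for TSPAN18, 1.80 for MARCKS, 1.78 for PLIN2 and 1.73 for LINGO1. Regulators gave 3.80 for RERG, 3.51 for IGF2BP3, 2.94 for MKX and 1.61 for JDP2, and HBA1 gave 1.42. FAM25A at -2.09 and CDKN2B at -1.57 were negative. PDGFC, FAT1 and CEP44 lie on distal chromosome 4, where the median difference was 0.45 in isoform 8 against 7 and -0.52 in isoform 11 against 10.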

How the results depend on the processing

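Of the 26 genes called higher and 8 called lower, median-of-ratios scaling kept 22 and 8 of the same genes. The totals called (34), higher and lower moved to 106, 89 and 17 with a pseudocount of 0.1, to 55, 46 and 9 with 0.5, to 20, 13 and 7 at a minimum of 5 TPM, to 185, 148 and 37 at a minimum ratio of 1.5, and to 2168, 1670 and 498 with no minimum difference; among coding genes alone 2 were lower. A smaller pseudocount enlarges differences of low genes and a higher minimum removes them by construction. Interactions called 124, 128 and 429 genes against the pairs 2 and 1, 5 and 4, and 11 and 10 with a pseudocount of 0.1, 32, 27 and 128 at 5 TPM, and 857, 1081 and 3338 with no minimum difference. With the sign of the pair 5 and 4 turned, added after seeing the data, its interaction called 184 genes. Leaving out 1 library at a time gave 4 to 21 genes called lower: 4 without the third isoform 8 library, 5 without the first isoform 7 library and 21 without the second isoform 8 library, of which 13 were mitochondrial. By adjusted p alone, 927 genes were higher without the first isoform 7 library, 1020 without the first and 949 without the third isoform 8 library, against 1670. Distal chromosome 4 lay 0.395 above the median of all genes, and 0.457 and 0.437 above it with pseudocounts of 0.1 and 0.5, 0.434 at 5 TPM, 0.447 with no filter and 0.373 to 0.426 with 1 library left out; the cause was not tested. The HNF4A difference of 1.19 TPM became -29.8 with median-of-ratios scaling and lay between -19.3 and 17.6 with 1 library left out (-0.65 and -13.4 among them), the cause of which was not tested.

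Replicate numbers did not pair the samples: libraries with the same number had correlations of deviations of 0.0946, -0.125 and -0.042. With a replicate block 28 genes were called higher and 7 lower on the 6 libraries (263 and 70 by adjusted p alone). It gave 26 and 9 on 33 libraries, where the fit without the block called 26 and 7. On the 6 libraries without a block 26 genes were called higher and 7 lower. By adjusted p alone that fit gave 857 and 250, against 1670 and 498 with all 39 libraries. The isoform 4 and 5 columns are numbered, but their sample labels repeat 1 column code for all 3 replicates, so the columns were not tied to replicates and were left out of the block. Depth per library is unknown, so counting error at low TPM could not be set apart from the spread between libraries.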
